A study of Mus musculus with 7 samples.

Results

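The IL-2 axis and regulatory T genes are 10 genes, picked by symbol from the 32285 in the count tables: the cytokine Il2, the receptor chains Il2ra, Il2rb and Il2rg, the regulatory T transcription factors Foxp3 and Ikzf2, the cytokine Il10 with its receptor chain Il10ra, and the cytokine Il15 with its receptor chain Il15ra. All 10 were found, and each is annotated as a protein-coding gene. They were followed in CD8 T, CD4 T, Foxp3 T and NK cells of whole brain tumours by droplet single-cell RNA sequencing, which counts unique molecular identifiers (UMIs) per gene and cell. The tumours grew from NSCG-mCherry, a mouse glioma line with the EGFRvIII receptor variant and without functional Arf/Ink4a, in C57BL/6 mice labelled wild type and 7 to 10 weeks old, which have their own immune system. Each of the 7 libraries pooled at least 2 mice at about day 14, so differences between mice could not be measured, and p-values measure the spread between pooled libraries only.

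The UT group (1 library) is labelled a control with no agent named. The IgG group (2 libraries) received an IgG2b isotype antibody at 10 mg/kg, and the labels do not say which IgG mice also had the gavage diluent. The BP group (2 libraries) received 5 mg/kg of the anti-VEGF antibody B20 and 10 mg/kg of anti-PD-L1. The BPI group (1 library) received the same antibodies and a daily gavage of 10 mg/kg IPI-145, which inhibits the delta and gamma forms of PI3K. IgG, BP and BPI had 3 treatment rounds each. The CD40 group (1 library) received 2 doses of 100 µg of a CD40 agonist antibody, and the labels do not say whether a dendritic cell vaccine was added.

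IL-2 is made chiefly by activated T cells and binds a receptor of a beta chain (Il2rb) and the common gamma chain (Il2rg), whose affinity for IL-2 the alpha chain (Il2ra, CD25) raises. Regulatory T cells carry a high level of CD25, depend on IL-2 from other cells, and are defined by the factor Foxp3. Many also carry Helios (Ikzf2) and can release IL-10, which acts through Il10ra on myeloid cells and lymphocytes. IL-15 is displayed on its alpha chain (Il15ra), often by myeloid cells, to the same beta and gamma chains on NK and CD8 T cells, which need it to persist.

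The classes were rebuilt from marker genes, and the members took no part in the clustering. T-like cells were divided by their own UMIs, with Cd8a or Cd8b1 UMIs and no Cd4 for CD8 T and the reverse for CD4 T, while Foxp3 T cells were clusters named from a list of 9 markers that includes Foxp3. CD8 T cells numbered 46 in UT, 7 and 9 in IgG, 464 and 113 in BP, 327 in BPI and 50 in CD40. CD4 T cells numbered 106 in UT, 5 and 9 in IgG, 284 and 25 in BP, 27 in BPI and 17 in CD40. Foxp3 T cells numbered 39 in UT, 3 and 4 in IgG, 258 and 16 in BP, 38 in BPI and 14 in CD40. NK cells numbered 118 in UT, 42 and 16 in IgG, 431 and 95 in BP, 330 in BPI and 58 in CD40. T cells of all kinds numbered 279 in UT, 39 and 57 in IgG, 1289 and 230 in BP, 592 in BPI and 132 in CD40, counting gamma-delta T cells and T cells with UMIs of neither or of both lineages, which are in none of the 4 classes. IgG therefore had the fewest cells in every class, and BP replicate 1 the most.

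Libraries held 68997476 to 186793886 UMIs, and pairs of libraries shared 0 to 23 cell barcodes. Listed barcodes numbered 713553 in UT and 1487060 to 2310016 in the other libraries, so the chemistry of UT may differ. In contrasts of UT against IgG, group and chemistry cannot be told apart. The median depth of T cells also differed, at 5044 UMIs in UT, 2469 and 3498 in IgG, 6123 and 2882 in BP, 2392 in BPI and 4902 in CD40; the part of depth in the results was not tested. By library number, IgG replicate 1, BP replicate 2 and BPI followed each other, as did CD40 and IgG replicate 2, while BP replicate 1 and UT stood alone. Clusters of tumour-like cells divided largely along these numbers. A cluster held 2174 cells of IgG replicate 1, 2108 of BP replicate 2 and 1706 of BPI, and at most 4 of any other library. Another held 1999 cells of IgG replicate 2 and 1657 of CD40, and a further cluster 4284 of BP replicate 1. Libraries of the same group thus differed in their tumour cells, and the part of this in the results was not tested. In the Foxp3 T cells the 9 markers summed to 2219 to 7085 CPM (UMIs scaled to the class's total UMIs in that library), but Gpr83, Lrrc32, Ikzf4 and Ccr8 were at 0 in both IgG libraries, so the name rests on few UMIs there. Levels below are CPM of the counts summed over a class in a library.

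The promoters of Il2, Il2ra and Foxp3 are shown because these members stand for the cytokine, the inducible receptor chain and the lineage factor that the results turn on. They are the 250 bases before a RefSeq transcription start (GRCm38.p6), 5′ to 3′ on the gene's strand, for 3 of the 5 members found in the RefSeq table. Capitals mark GGAAAA, the core bound by NFAT factors downstream of the T cell receptor, and TTCNNNGAA, the pattern bound by STAT factors downstream of cytokine receptors, on either strand.
Il2, chr3:37125955-37126204, minus strand: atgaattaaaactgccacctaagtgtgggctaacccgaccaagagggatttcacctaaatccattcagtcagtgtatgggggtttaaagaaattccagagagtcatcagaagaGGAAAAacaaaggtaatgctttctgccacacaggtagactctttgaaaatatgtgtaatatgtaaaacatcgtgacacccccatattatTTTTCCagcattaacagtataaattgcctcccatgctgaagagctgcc
Il2ra, chr2:11642542-11642791, plus strand: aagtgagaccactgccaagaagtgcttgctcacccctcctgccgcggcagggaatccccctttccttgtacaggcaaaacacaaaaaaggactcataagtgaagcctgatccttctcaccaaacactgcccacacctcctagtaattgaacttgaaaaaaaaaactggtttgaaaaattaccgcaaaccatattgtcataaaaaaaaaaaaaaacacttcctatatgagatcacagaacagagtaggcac
Foxp3, chrX:7580233-7580482, plus strand: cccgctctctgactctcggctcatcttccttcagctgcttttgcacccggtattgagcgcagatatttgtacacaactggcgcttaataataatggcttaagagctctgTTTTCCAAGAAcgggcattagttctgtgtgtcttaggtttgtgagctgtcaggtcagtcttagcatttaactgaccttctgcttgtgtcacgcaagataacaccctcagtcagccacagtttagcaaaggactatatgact
GGAAAA occurs 2 times in the Il2 stretch and 1 time in the Foxp3 stretch, where it overlaps the 1 TTCNNNGAA match. Neither pattern is in the Il2ra stretch, nor in that of the other Foxp3 start of the table, chrX:7579426-7579675, which is not printed. Of 32851 promoter stretches of this length, 20.43% hold GGAAAA and 7.02% hold TTCNNNGAA, so these matches are a description and not a sign of binding.

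**Figure D1:**
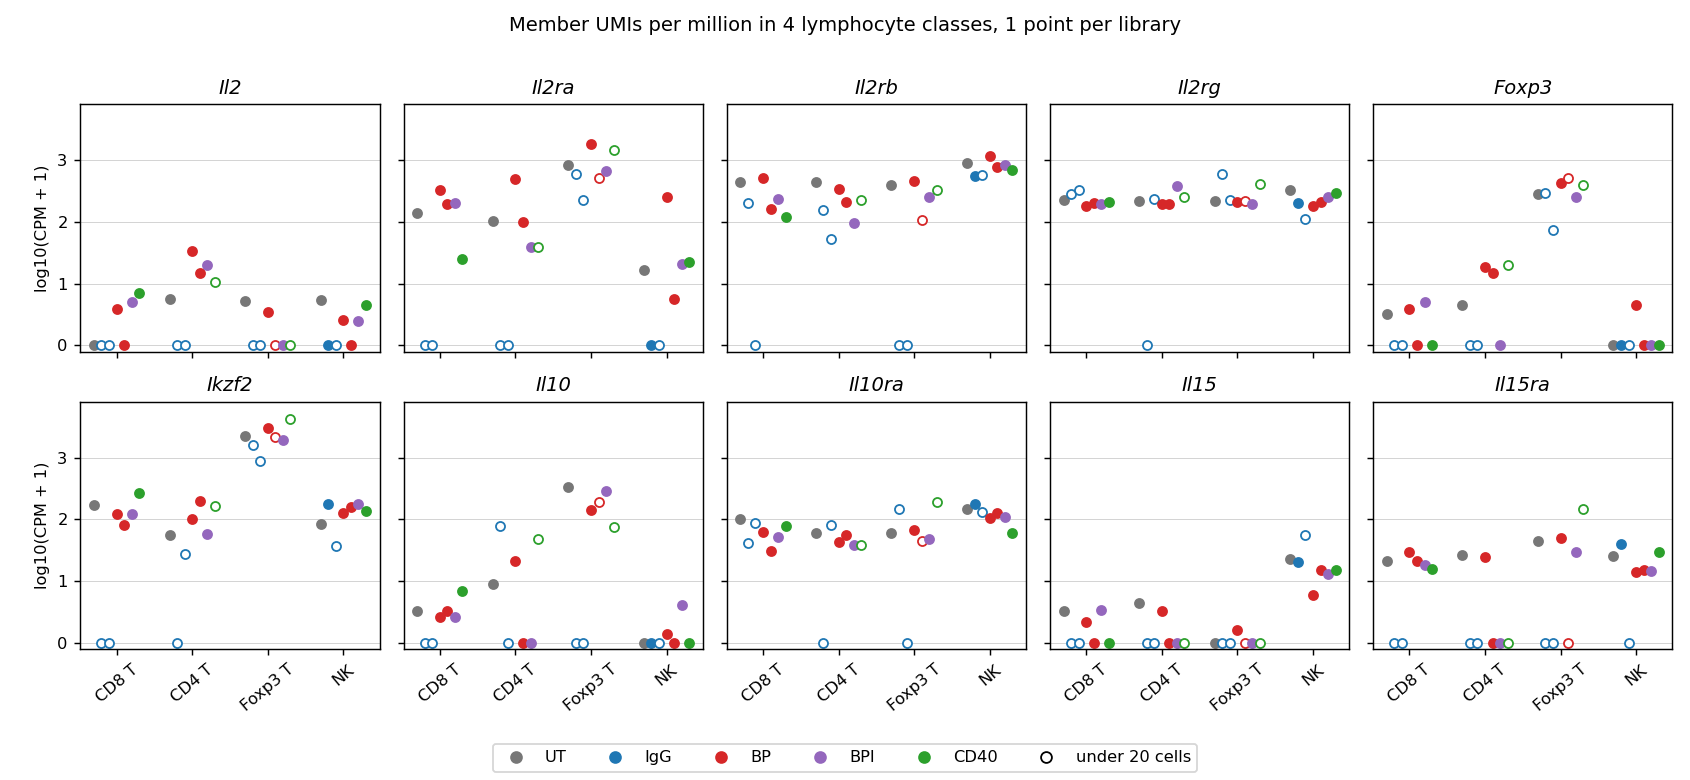
Levels of the 10 members in the 4 lymphocyte classes on a log10(CPM + 1) axis, 1 point per library, coloured by group, with open points for fewer than 20 cells. Il2ra, Ikzf2, Foxp3 and, outside IgG, Il10 are highest in Foxp3 T cells and Il2rb in NK cells, while the ranges of Il2rg overlap between the classes.

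Il2 (chr3:37120523-37125959, GRCm38, minus strand) was low in the lymphocyte classes, with the most UMIs in CD4 T cells of BP replicate 1. In CD4 T cells it was at 4.64 in UT, 0 in both IgG libraries, 32.9 and 13.9 in BP, 18.8 in BPI and 9.54 CPM in CD40. The values of BP replicate 2, BPI and CD40 were 1 UMI each, and that of UT 4 UMIs. In BP replicate 1, 9 of 284 CD4 T cells held 85 Il2 UMIs, 1 cell held 46 and the next 15, and 6 cells with at least 2 UMIs held 82. Of these 6 cells, 5 lay in 1 sub-cluster, which held 169 of the 284 cells, and no concentration is read from the count. Of the 16 CD4 T cells with an Il2 UMI in all libraries, 0 also had a Foxp3 UMI (exact 95% interval up to 20.6%), against 4.16% of the 457 without one, a difference that was not detectable at this number of cells. The Foxp3 T clusters were already outside this class and the cells were pooled over libraries, so nothing is read from this comparison. CD8 T cells held 0 Il2 UMIs in UT, in both IgG libraries and in BP replicate 2, and 2.85 in BP replicate 1, 4.11 in BPI and 5.95 CPM in CD40. Those CD8 T values lie near the 2.3 to 4.9 CPM of Il2 in free RNA, the profile of barcodes with at most 50 UMIs. In the lymphocyte fits reported here Il2 did not pass the filter on low counts. Alternatives that tested it, with no filter, with doublets kept or with a library left out, gave adjusted p-values of 0.807 or more in lymphocytes by edgeR.

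Il2ra (chr2:11642807-11693193, plus strand), the chain that raises affinity for IL-2, was at 0 UMIs in IgG and detected in every other library in CD8 T and CD4 T cells. In CD8 T cells it was at 135.9 in UT, 0 in both IgG libraries, 323 and 192 in BP, 201 in BPI and 23.8 CPM in CD40. In CD4 T cells it was at 103 in UT, 0 in both IgG libraries, 490 and 97.4 in BP, 37.7 in BPI and 38.2 CPM in CD40. The IgG libraries held 16 CD8 T and 14 CD4 T cells in all, and 3 counts over both would be 50.8 CPM in CD8 T and 59.0 CPM in CD4 T cells. CD40 lay below that floor in CD8 T cells, as did BPI and CD40 in CD4 T cells, so no difference from IgG was detectable for them at this depth. In Foxp3 T cells it was at 839 in UT, 590 and 222 in IgG, 1805 and 517 in BP, 673 in BPI and 1440 CPM in CD40, and here IgG and BP overlapped. Free RNA held 0 to 11.8 CPM of Il2ra except in BP replicate 1, with 42.6 CPM.

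With all T cells summed, Il2ra was at 190 in UT, 88.1 and 41.5 in IgG, 607 and 171 in BP, 186 in BPI and 174 CPM in CD40. BP lay above IgG without overlap, and Il2ra rose by a log2 fold change of 2.42 ± 0.51 (SE, 2 libraries each; edgeR quasi-likelihood test, adjusted p = 0.00718). In such a sum, more cells that carry a gene and more RNA per cell cannot be told apart, and Foxp3 T cells were 20.02% of the T cells of BP replicate 1. Within the consecutive numbers of IgG replicate 1, BP replicate 2 and BPI, which leaves 1 library a group and no test, Il2ra was at 88.1 in IgG replicate 1, 171 in BP replicate 2 and 186 CPM in BPI. Without BP replicate 1 the log2 fold change was 1.49 (edgeR adjusted p = 0.256), without IgG replicate 2 it was 1.97 (0.515), with doublets kept 2.97 (0.126) and by DESeq2 2.37 (0.0953), and over 10 alternatives the adjusted p ran from 9.63e-08 to 0.515. Against IgG, Il2ra in all T cells did not pass the edgeR test in BPI (1.70 ± 0.57, adjusted p = 0.282), CD40 (1.41 ± 0.58, adjusted p = 1.0) or UT (1.58 ± 0.58, adjusted p = 0.155).

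CD8 T and CD4 T cells were fitted at a minimum of 5 cells per library that was chosen after the cell numbers were known. Because IgG held 0 Il2ra UMIs, its folds are lower bounds against the floor of 3 counts over both IgG libraries. These bounds cover counting error only. They leave out the spread between cells, of which IgG held 7 and 9 CD8 T and 5 and 9 CD4 T. Pooled Il2ra in CD8 T cells was at least 6.11-fold higher in BP (3.78-fold without BP replicate 1), at least 3.95-fold higher in BPI and at least 2.67-fold higher in UT. In CD4 T cells it was at least 8.13-fold higher in BP and at least 1.75-fold higher in UT. With the floor of IgG replicate 1 alone, that is without IgG replicate 2, the bounds in CD8 T cells were 2.59-fold in BP, 1.67-fold in BPI and 1.13-fold in UT, and in CD4 T cells 2.07-fold in BP with none in UT. Without IgG replicate 1 they were 3.52-fold, 2.27-fold and 1.54-fold in CD8 T cells and 6.07-fold and 1.31-fold in CD4 T cells. The CD4 T bound in BP also rests on BP replicate 1, which held 2587200 UMIs against 71855 in BP replicate 2, and without it the bound was 1.65-fold. Of the edgeR adjusted p-values in CD8 T cells, those in BP (0.00125), BPI (0.00345) and UT (0.0294) were under 0.05 and that in CD40 (0.869) was not; in CD4 T cells that in BP (0.00245) was and that in UT (0.128) was not. Il2ra passed the filter on low counts only through the libraries where it is high, so these p-values are given as values and no rise is read from them. Leaving out IgG replicate 1 or 2 moved all 4 above the threshold of 0.05 (edgeR adjusted p of 0.217 and 0.468 for CD8 T in BP, 0.281 and 0.387 in BPI, 0.422 and 0.586 in UT, and 0.394 and 0.457 for CD4 T in BP), with 1 IgG library then assumed to vary like the other groups. Without BP replicate 1, the CD8 T value in BP also missed it (edgeR adjusted p = 0.0644), and in CD4 T cells Il2ra then did not pass the filter on low counts. By DESeq2 Il2ra did not pass in CD8 T cells in BP (adjusted p = 0.0705) or BPI (0.167), and with classes from a per-cell gate it passed in BP (edgeR log2 fold change 3.07, adjusted p = 0.0154) but not in BPI (0.111) or UT (0.261), nor in CD4 T cells in BP (0.0728). DESeq2 gave no adjusted p for CD8 T cells in UT or CD4 T cells in BP. Over the alternatives that gave one, it ran from 0.000192 to 0.468 for CD8 T cells in BP, 0.00138 to 0.387 in BPI and 0.0204 to 0.586 in UT, and from 9.1e-05 to 0.457 for CD4 T cells in BP.

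**Figure D2:**
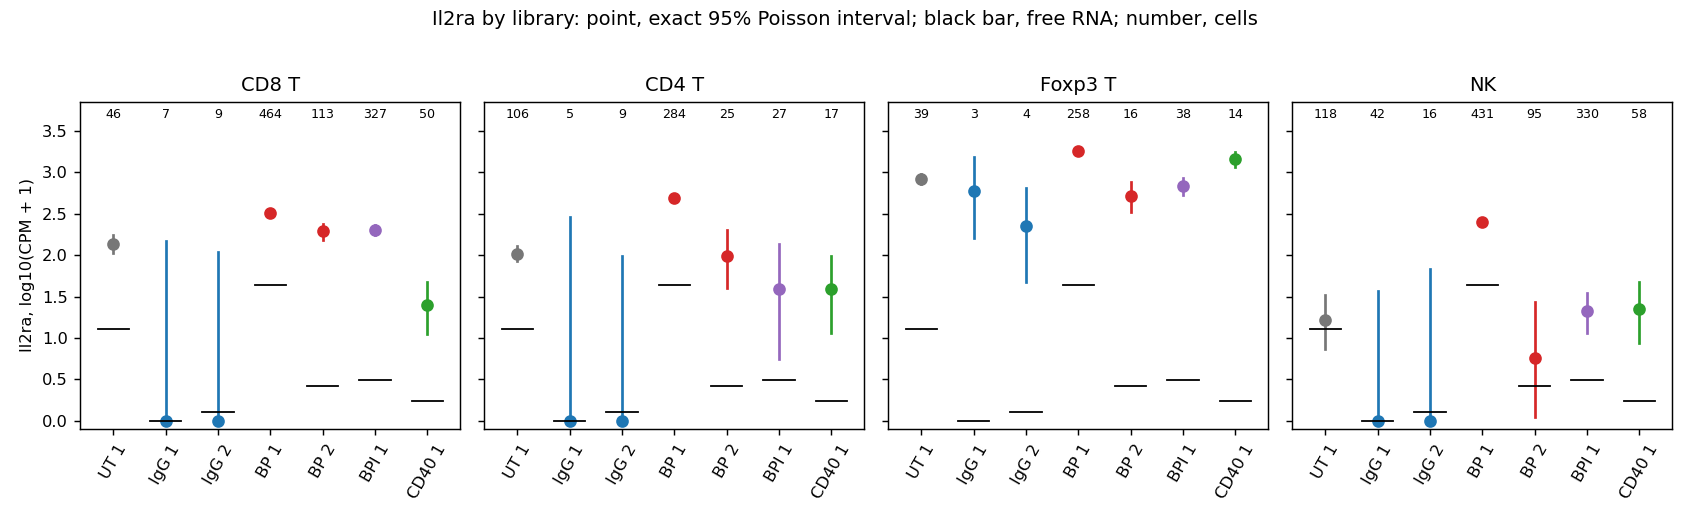
Il2ra in each library and class on a log10(CPM + 1) axis, with exact 95% Poisson intervals for counting error, black bars for free RNA and cell numbers at the top. IgG is at 0 in CD8 T, CD4 T and NK cells with wide intervals, and BP replicate 1 is the highest library in all 4 classes.

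In NK cells Il2ra was at 15.6 in UT, 0 in both IgG libraries, 250 and 4.67 in BP, 19.9 in BPI and 21.2 CPM in CD40. BP replicate 1 stood far above all other libraries, including the other BP library with 1 UMI. Of its 647 Il2ra UMIs in NK cells, 619 lay in 1 sub-cluster of 68 cells, where Il2ra was at 564 CPM. The same sub-cluster held 92.4 in UT, 37.9 in BPI and 47.1 CPM in CD40, and the other NK sub-clusters of BP replicate 1 held 3.26 to 23.4 CPM. Il2ra did not pass in NK cells in BP against IgG (edgeR adjusted p = 0.324). Of the 7 alternatives that gave an adjusted p, it passed in 3: with no filter on low counts, without IgG replicate 2 and without BP replicate 2.

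Il2rb (chr15:78479256-78495271, minus strand), the beta chain that IL-2 and IL-15 share, was highest in NK cells. There it was at 903 in UT, 543 and 569 in IgG, 1166 and 761 in BP, 818 in BPI and 694 CPM in CD40. Both BP libraries lay above both IgG libraries, but the difference of 0.81 ± 0.41 (log2, SE) did not pass (edgeR adjusted p = 0.984). In CD8 T cells Il2rb was at 435 in UT, 200 and 0 in IgG, 512 and 158 in BP, 233 in BPI and 119 CPM in CD40. In UT against IgG in CD8 T cells the difference was 2.85 ± 0.75 (log2, SE; edgeR adjusted p = 0.0245), on 5 IgG UMIs and 1 UT library, and without IgG replicate 2 the value was 1.66 (0.607). It passed in 3 of 9 alternatives, at adjusted p of 0.00775 to 0.607. In BP the difference was 2.31 ± 0.69 and did not pass (edgeR adjusted p = 0.105). In CD4 T cells Il2rb was at 441 in UT, 155 and 52.7 in IgG, 339 and 209 in BP, 94.2 in BPI and 229 CPM in CD40. No contrast passed there in the fit reported here. The difference in UT, 2.50 ± 0.87 (log2, SE), passed in 5 of 9 alternatives, and that in BP, 1.70 ± 0.80, in 1 of 10.

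Il2rg (chrX:101264378-101268255, minus strand), the gamma chain common to several cytokine receptors, did not pass the edgeR test as reported here in any contrast or class. CD8 T cells held Il2rg at 226 in UT, 280 and 323 in IgG, 180 and 203 in BP, 191 in BPI and 205 CPM in CD40. In NK cells it was at 328 in UT, 204 and 110 in IgG, 180 and 205 in BP, 253 in BPI and 290 CPM in CD40. Among libraries with at least 20 cells of a class, its ranges overlapped between all 4 classes. In all T cells the BP against IgG difference was -0.32 ± 0.42 (log2, SE; edgeR adjusted p = 0.961). Monocyte/macrophage-like cells held Il2rg at 237 in UT, 60.7 and 26.7 in IgG, 157 and 126 in BP, 166 in BPI and 83.4 CPM in CD40. All other libraries lay above IgG there, with differences of 2.82 ± 0.55 in UT (log2, SE; edgeR adjusted p = 0.0874) and 2.49 ± 0.54 in BPI (0.135). Both passed by DESeq2 (adjusted p of 0.00311 and 0.0154), with no filter on low counts, without IgG replicate 1 and without BP replicate 2, and UT also without BP replicate 1. Without IgG replicate 2 neither passed (edgeR adjusted p of 0.443 and 1.0).

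Foxp3 (chrX:7573644-7595245, plus strand) helped to name the Foxp3 T cells, so its level there is a description. It was at 280 in UT, 295 and 74.0 in IgG (2 UMIs and 1 UMI), 418 and 517 in BP, 250 in BPI and 397 CPM in CD40. It was at 0 to 4.11 CPM in CD8 T, 0 to 19.1 CPM in CD4 T and 0 to 3.47 CPM in NK cells, beside 0 to 5.9 CPM in free RNA. In all T cells summed Foxp3 was at 34.7 in UT, 16.0 and 4.61 in IgG, 74.4 and 33.4 in BP, 18.3 in BPI and 38.9 CPM in CD40. BP lay above IgG without overlap, but the difference of 2.41 ± 0.77 (log2, SE) did not pass (edgeR adjusted p = 0.145). It passed in 1 of 10 alternatives, without BP replicate 2.

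Foxp3 T cells made up 14.0% of T cells in UT (exact 95% binomial interval 10.1 to 18.6), 7.69% (1.62 to 20.9) and 7.02% (1.95 to 17.0) in IgG, 20.02% (17.9 to 22.3) and 6.96% (4.03 to 11.1) in BP, 6.42% (4.58 to 8.70) in BPI and 10.6% (5.92 to 17.2) in CD40. BP replicate 1 was high and BP replicate 2 lay below both IgG libraries. The BP mean was 13.5% ± 9.23 and the IgG mean 7.35% ± 0.477 (SD, n = 2 each), a difference of 6.13 percentage points with an exact two-sided permutation p of 1.0, where the smallest possible p is 0.3333. Without BP replicate 1 the difference was -0.398 points. Of CD4 T and Foxp3 T cells together, Foxp3 T cells were 43.3% in BP and 34.1% in IgG, and of all cells 1.48% and 0.0519% (means, n = 2 each). Both BP libraries lay above both IgG libraries on each scale, with an exact permutation p of 0.3333. With doublets kept that order ended on the former scale: BP replicate 2 held 13 Foxp3 T and 28 CD4 T cells, and IgG replicate 1 3 and 6. A higher share of all cells was not particular to Foxp3 T cells. CD8 T cells were 3.39% in BP and 0.119% in IgG, CD4 T cells 1.69% and 0.102%, and NK cells 3.06% and 0.460% (exact permutation p of 0.3333 each). Within the consecutive library numbers, the shares of IgG replicate 1, BP replicate 2 and BPI had overlapping intervals. CD8 T cells per Foxp3 T cell numbered 1.18 in UT, 2.33 and 2.25 in IgG, 1.80 and 7.06 in BP, 8.61 in BPI and 3.57 in CD40, so the BP libraries fell on either side of IgG.

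**Figure D3:**
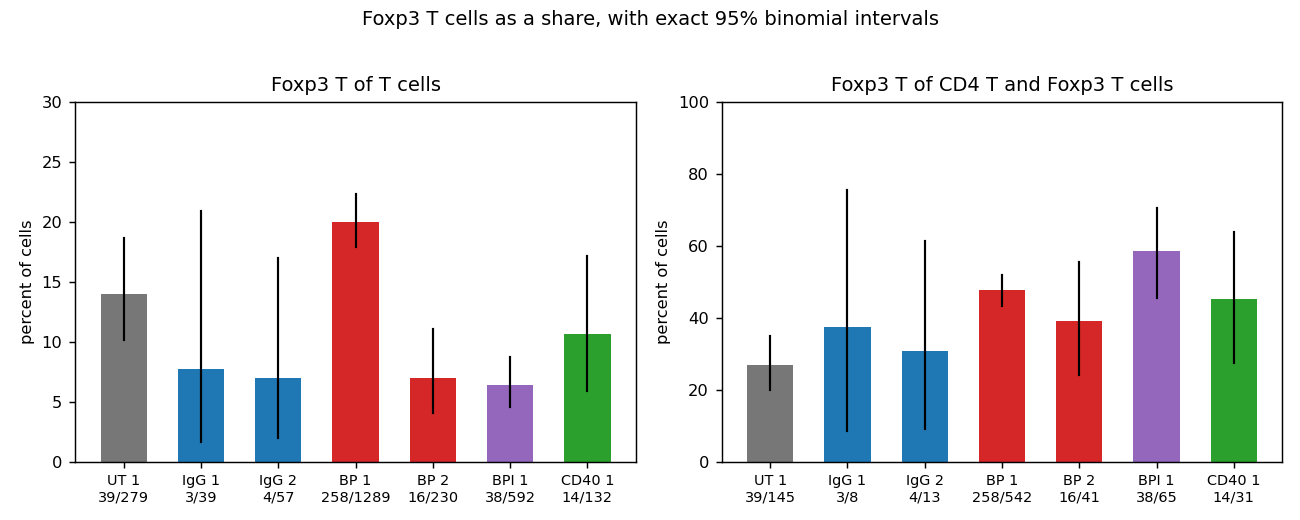
Foxp3 T cells as a percent of T cells (left) and of CD4 T and Foxp3 T cells together (right), 1 bar per library with exact 95% binomial intervals and the cell counts under each bar. BP replicate 1 has the highest share of T cells, 20.02%, and BP replicate 2 lies at 6.96%, near IgG.

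Ikzf2 (chr1:69531214-69687245, minus strand), the gene for Helios, was highest in Foxp3 T cells in every library. There it was at 2220 in UT, 1624 and 888 in IgG, 3044 and 2176 in BP, 1932 in BPI and 4203 CPM in CD40. CD8 T cells held Ikzf2 at 168 in UT, 0 in both IgG libraries, 123 and 79.97 in BP, 119 in BPI and 268 CPM in CD40. The floors of 3 counts were 120 and 88.2 CPM in the IgG libraries, and free RNA held 4.0 to 77.2 CPM. Of the 90 Ikzf2 UMIs in CD8 T cells of CD40, 66 lay in 3 cells of a sub-cluster of 8 cells, at 607 CPM, and the level of CD40 was 140 CPM with each cell thinned to 1000 UMIs. Against the floor of 50.8 CPM over both IgG libraries, pooled Ikzf2 in CD8 T cells was at least 5.27-fold higher in CD40 (edgeR adjusted p = 0.00716) and at least 3.30-fold higher in UT (0.0143). It was at least 2.34-fold higher in BP (1.57-fold without BP replicate 1) and in BPI, where it did not pass (edgeR adjusted p of 0.0970 and 0.0612). With the floor of IgG replicate 1 alone the bounds were 2.23-fold in CD40 and 1.40-fold in UT, with none in BP or BPI, and with that of IgG replicate 2 alone 3.04-fold, 1.90-fold, 1.35-fold and 1.35-fold in the same order. The bounds cover counting error only and leave out the spread between cells. IgG held 7 and 9 CD8 T cells, and over all libraries 21.6% of CD8 T cells had an Ikzf2 UMI. As for Il2ra, the p-values in CD40 and UT rest on 0 IgG UMIs and 1 treated library, and no rise is read from them or from the bounds. Leaving out IgG replicate 1 or 2 moved the p above 0.05 in CD40 (edgeR adjusted p of 0.607 and 0.526) and UT (0.328 and 0.456), as did the per-cell gate (0.131 and 0.23). The adjusted p was under 0.05 in 5 of 9 alternatives in CD40 and in 4 of the 8 in UT that gave one, DESeq2 giving none there, and ran over 0.00852 to 0.607 and 0.00391 to 0.456. CD40 and IgG replicate 2 have neighbouring library numbers, and there the CD8 T levels were 268 and 0 CPM.

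In all T cells Ikzf2 was at 353 in UT, 128.1 and 120 in IgG, 643 and 314 in BP, 280 in BPI and 664 CPM in CD40. BP lay above IgG without overlap, and Ikzf2 rose by 1.74 ± 0.46 (log2, SE; edgeR adjusted p = 0.0477). The call was lost without BP replicate 1 (1.34, adjusted p = 0.221), without IgG replicate 1 (1.72, 0.376), without IgG replicate 2 (1.76, 0.670), with doublets kept (2.07, 0.126) and by DESeq2 (1.70, 0.0979), and with the replicate number as a block it was 1.62 (0.0508). The range over 10 alternatives was 0.000207 to 0.670. In CD40 the difference was 2.32 ± 0.52 and did not pass (edgeR adjusted p = 0.0655). It passed in 4 of 8 alternatives, over which it ran from 2.29 to 2.50. Gamma-delta T cells, which are in this sum, also carried Ikzf2, at 302 in UT, 64.3 and 120 in IgG, 861 and 919 in BP, 627 in BPI and 746 CPM in CD40.

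Il10 (chr1:131019845-131024974, plus strand), an inhibitory cytokine, was likewise highest in Foxp3 T cells among the 4 classes in every library outside IgG. There it was at 331 in UT, 0 in both IgG libraries, 143 and 194 in BP, 288 in BPI and 73.5 CPM in CD40. The IgG libraries held 7 Foxp3 T cells, too few for a test, and 3 counts over both would be 148 CPM. UT, BP replicate 2 and BPI lay above that floor, and BP replicate 1 and CD40 below it. With IgG replicate 1 alone the floor was 443 CPM, above every library. Among the 254 Foxp3 T cells with a Foxp3 UMI, 19.3% had an Il10 UMI, against 22.0% of the 118 without (11.4% and 10.2% with each cell thinned to 1000 UMIs). Of 1005 CD8 T cells without a Foxp3 UMI, at a median of 4811 UMIs, 0.896% had one. Of the same 254 and 118 Foxp3 T cells, 93.3% against 61.9% had an Il2ra UMI (71.7% and 46.6% thinned), and 91.7% against 81.4% an Ikzf2 UMI (81.5% and 64.4% thinned). These cells, pooled over libraries, had median depths of 4786 and 2856 UMIs, and no difference between them was tested.

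Within Foxp3 T cells a cycling sub-cluster of 51 cells, 41 of them in BP replicate 1, stood beside a main sub-cluster of 321 cells. In BP replicate 1, Il2ra was at 1754 CPM in the cycling and 1831 CPM in the main sub-cluster. Ikzf2 was at 2411 and 3374 CPM, and Il10 at 90.2 and 171 CPM, in the same order. These are levels within 1 library and have no test.

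Il15 (chr8:82331632-82403222, minus strand), the cytokine that sustains NK and CD8 T cells, was low in lymphocytes, and monocyte/macrophage-like cells held 40.3% and tumour-like cells 27.1% of its UMIs. Tumour-like cells held Il15 at 0.652 to 5.12 CPM, beside 1.18 to 10.4 CPM in free RNA. The part of background in these UMIs was not tested. In NK cells it was at 22.3 in UT, 19.4 and 55.1 in IgG, 5.01 and 14.0 in BP, 12.3 in BPI and 14.2 CPM in CD40, with 2 to 13 UMIs in each library. BP replicate 1 lay below its free RNA, at 8.78 CPM, and the other libraries above theirs. In CD8 T, CD4 T and Foxp3 T cells it was at 0 to 3.48 CPM. In monocyte/macrophage-like cells Il15 was at 72.7 in UT, 55.6 and 8.89 in IgG, 46.3 and 71.3 in BP, 109 in BPI and 9.95 CPM in CD40. CD40 and IgG replicate 2, of neighbouring library numbers, were the 2 lowest. Dendritic-like cells, present in 4 libraries, held Il15 at 223 in UT, 370 and 54.1 in BP and 161 CPM in BPI.

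Il15ra (chr2:11705290-11734317, plus strand) presents IL-15. CD8 T cells held Il15ra at 20.4 in UT, 0 in both IgG libraries, 28.4 and 20.6 in BP, 17.3 in BPI and 14.9 CPM in CD40. These lay within or near the 7.1 to 25.6 CPM of free RNA over the libraries, though BP replicate 2 had 7.12 CPM, beside 9 UMIs in its CD8 T cells. With all T cells summed, Il15ra was at 24.1 in UT, 27.4 in pooled BP, 15.5 in BPI and 24.6 CPM in CD40. IgG held 0 UMIs there, with a floor of 8.78 CPM, or 24.0 with IgG replicate 1 alone. No contrast passed by edgeR in that sum. In Foxp3 T cells Il15ra was at 43.0 in UT, 0 in both IgG libraries, 48.2 and 0 in BP, 28.8 in BPI and 147 CPM in CD40, on 10, 78, 3 and 10 UMIs where it was detected. In UT, BP replicate 1 and BPI, the 3 libraries with at least 20 Foxp3 T cells, it lay above the other 3 classes, and free RNA there held 25.6, 25.3 and 16.1 CPM. CD4 T cells held 25.5 in UT and 23.6 in BP replicate 1, and 0 CPM in the rest. NK cells held 24.5 in UT, 38.8 and 0 in IgG, 13.1 and 14.0 in BP, 13.8 in BPI and 28.3 CPM in CD40. In monocyte/macrophage-like cells Il15ra was at 68.4 in UT, 8.43 and 2.96 in IgG, 27.0 and 27.5 in BP, 44.1 in BPI and 4.46 CPM in CD40. UT, BP and BPI lay above IgG and CD40 did not. Of the 1805 monocyte/macrophage-like cells of BP replicate 1, 1668 lay in a cluster almost absent from the other libraries. The BP libraries thus differed in the kinds of cell summed here, for Il15 and Il2rg as well. The differences from IgG were 4.13 ± 0.59 in UT (log2, SE; edgeR adjusted p = 0.0510), 3.67 ± 0.62 in BPI (0.0889) and 2.55 ± 0.57 in BP (0.263), and none passed in the edgeR fit reported here. With the replicate numbers crossed as a block, an alternative chosen after seeing the data, Il15ra, Il15 and Il2rg passed in BP by edgeR. UT and BPI passed by DESeq2 (adjusted p of 0.000877 and 0.0111), and these and BP passed with no filter on low counts, without IgG replicate 1 and without BP replicate 2. UT and BPI also passed without BP replicate 1, so that each passed in 5 of 8 alternatives, and BP passed in 4 of 10. Without IgG replicate 2 none passed (edgeR adjusted p of 0.0850, 0.546 and 1.0 in UT, BPI and BP).

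Il10ra (chr9:45253837-45269149, minus strand), the IL-10-binding chain, was detected in all 4 lymphocyte classes, though at 0 in CD4 T cells of IgG replicate 1 and in Foxp3 T cells of IgG replicate 2. In NK cells it was at 147 in UT, 174 and 128.6 in IgG, 104 and 126 in BP, 110 in BPI and 60.2 CPM in CD40. Among CD8 T cells it was at 102 in UT, 40.005 and 88.2 in IgG, 62.4 and 29.7 in BP, 50.1 in BPI and 77.3 CPM in CD40. BP, BPI and CD40 lay below both IgG libraries in NK cells, where UT lay between them, and UT lay above both in CD8 T cells. None of these contrasts passed by edgeR, CD40 in NK cells included, with a difference of -1.31 ± 0.58 (log2, SE; adjusted p = 1.0). Monocyte/macrophage-like and microglia-like cells together held most Il10ra UMIs of the 7 libraries, 47.0% and 31.5%.

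**Figure D4:**
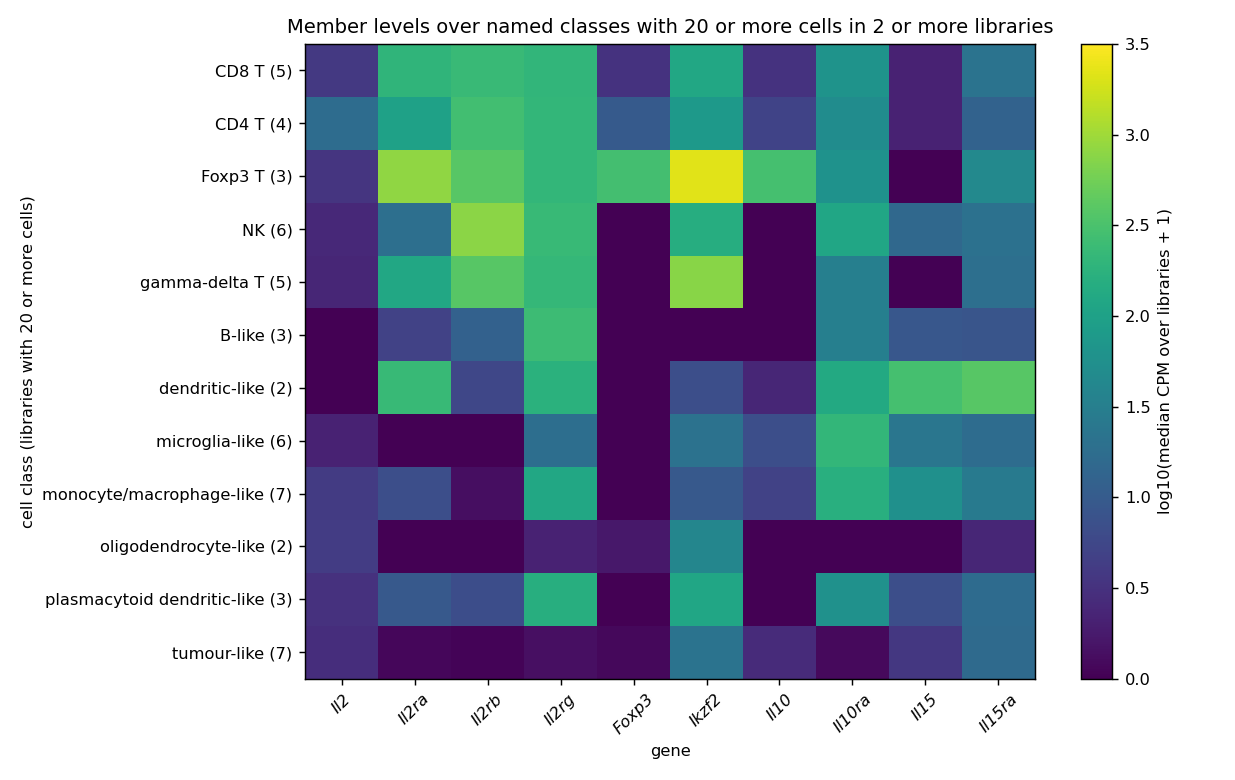
Median level of each member over the libraries with at least 20 cells of a class, as log10(CPM + 1), by cell class with the number of libraries in brackets. Only named classes with at least 2 such libraries are drawn, which leaves out mast or basophil-like cells (Il15 at 541 CPM in BP replicate 1) and neutrophil-like cells (Il10ra at 275 CPM there). Mixed classes are also left out, among them mixed endothelial and mural cells (median Il15 at 54.6 CPM over 5 libraries). Of the classes drawn, Il15 and Il15ra are highest in dendritic-like cells, Il10ra in microglia-like and monocyte/macrophage-like cells, and Ikzf2 in Foxp3 T and gamma-delta T cells.

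The members' UMIs were spread unevenly over the classes. Foxp3 T cells held 74.2% of 1107 Foxp3 UMIs and 38.4% of 8636 Il2ra UMIs, and NK cells 38.9% of 11327 Il2rb UMIs. Tumour-like cells, which are far more numerous, held 62.6% of 30138 Ikzf2 UMIs, 77.8% of 1607 Il2 UMIs and 79.7% of Il15ra UMIs. Their ranges over the libraries lay near those of free RNA, at 4.16 to 70.7 beside 4.0 to 77.2 CPM for Ikzf2, 1.60 to 3.21 beside 2.3 to 4.9 CPM for Il2 and 12.7 to 26.9 beside 7.1 to 25.6 CPM for Il15ra. The source of the free RNA was not tested and may include tumour-like cells. Barcodes of free RNA held at most 50 UMIs each, beside medians of 11603 to 22147.5 UMIs per cell in the tumour-like clusters. A similar CPM does not measure the part of background in these UMIs. That part was not tested, and nothing is read from them.

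Of the members that passed the filter on low counts, 2 of 8 rose in all T cells in BP against IgG, where 0.744% of 9134 genes tested were called. In all T cells 0 of 8 passed in BPI (0.416% of genes called), CD40 (0%) and UT (1.89%). In CD40 no gene was called by edgeR or DESeq2, and 326 had an unadjusted p under 0.05. In CD8 T cells 1 of 6 passed in BP (0.482%), 1 of 6 in BPI (0.406%), 1 of 6 in CD40 (0.0508%) and 3 of 6 in UT (0.88%). In CD4 T cells 1 of 4 passed in BP (3.69%) and 0 of 4 in BPI (0%), CD40 (0.41%) and UT (3.2%). In NK cells 0 of 6 passed in BP (0%), BPI (0%) and CD40 (0.0179%) and 0 of 7 in UT (0.0299%). In monocyte/macrophage-like cells 0 of 9 passed in BP (0%), BPI (0%), CD40 (0%) and UT (0.0967%). In CD8 T and CD4 T cells the Il2ra and Ikzf2 calls are against 0 IgG UMIs, so nothing is read from those counts. All 4 contrasts share the IgG libraries. Where no gene was called by edgeR, DESeq2 called 4 genes in NK cells in BP and 0 in BPI, 107, 192 and 4 in monocyte/macrophage-like cells in BP, BPI and CD40, and 0 in CD4 T cells in BPI. In the same order, 277, 164, 960, 1307, 113 and 67 genes had an unadjusted edgeR p under 0.05.

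Other genes of the pathway were read from 4 lists. Of 20 regulatory T genes, 17 were tested in all T cells and 3 rose in BP against IgG, with a median log2 difference of 1.24 beside 0.06 over all genes. Tnfrsf9, the costimulatory receptor 4-1BB, rose by 2.82 ± 0.55 (log2, SE; edgeR adjusted p = 0.00216). Entpd1, the ectoenzyme CD39, rose by 2.17 ± 0.53 (0.0294). Ctla4, the inhibitory receptor of CD80 and CD86, rose by 1.83 ± 0.46 (0.0330). By DESeq2, with doublets kept and without IgG replicate 2 none of these 3 passed. Tnfrsf9 and Ctla4 were also lost without BP replicate 1, and Entpd1 and Ctla4 without IgG replicate 1. In all, Tnfrsf9, Entpd1 and Ctla4 passed in 6, 6 and 5 of 10 alternatives, at log2 fold changes of 1.86 to 4.11, 1.70 to 2.77 and 1.62 to 2.17. In BPI 1 of 17 rose, Tnfrsf9 by 2.76 ± 0.60 (edgeR adjusted p = 0.00898; past the threshold in 5 of 8 alternatives), and 0 of 17 rose in CD40 and 5 of 17 in UT. In CD8 T cells 3 of 13 genes tested were past the threshold in BP, namely Icos, Tnfrsf9 and Ctla4 (edgeR adjusted p of 0.00172, 0.00672 and 0.0237), each on 1 UMI in IgG, so that, as for Il2ra, no rise is read from these p-values. Leaving out IgG replicate 1 or 2, or using DESeq2, ended all 3 calls, which held in 5, 6 and 2 of 11 alternatives. None of these genes is limited to regulatory T cells.

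Of 15 genes of IL-2 and common gamma chain signalling, 1 was past the threshold in all T cells in BP. This was Lta, the gene for lymphotoxin alpha, at 3.46 ± 0.82 (log2, SE, edgeR adjusted p = 0.0254). It passed in 5 of 10 alternatives and not by DESeq2, with doublets kept, without either IgG replicate or without BP replicate 1. Its log2 fold change ran from 2.73 to 10.7 over the alternatives, so no size of a rise is read from it. The list's median was 0.17, beside 0.06 over all genes. In BPI and CD40 0 of 15 passed. In UT 1 was past the threshold, again Lta, at 4.24 ± 0.84 (edgeR adjusted p = 0.00106, by DESeq2 0.0615) and at 3.52 to 11.4 over the alternatives. Of 8 other common gamma chain cytokines and receptors 4 were tested and 0 passed in BP, with Il7r, the IL-7 receptor, at -1.30 ± 0.43 (edgeR adjusted p = 0.191). Of 7 IL-10 partners 6 were tested and 0 passed in BP, with a median of 0.64. In CD8 T cells the same 3 regulatory T genes were under the threshold in BPI, as was Pim1, a kinase gene induced by STAT5 (edgeR adjusted p = 0.0218, on 7 IgG UMIs). In UT, Tnfrsf9, Ctla4 and Capg were, as was Stat3, the factor downstream of the IL-10 receptor (0.0418, on 5 IgG UMIs), and in CD40 none was.

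In CD4 T cells 4 of 10 regulatory T genes tested were under the threshold in BP and in UT, namely Ctla4, Tnfrsf9, Tnfrsf4 and Capg, each on 0 to 2 IgG UMIs. Ctla4 was also under it in CD40 (edgeR adjusted p = 0.0156), and 0 of 10 were in BPI. Of 3 IL-10 partners tested, Tgfb1, the gene for TGF-beta 1, was under it in BP (edgeR adjusted p = 0.000861) and UT (0.00129), on 0 IgG UMIs. Il7r was lower in UT, by -2.81 ± 0.75 (log2, SE; edgeR adjusted p = 0.0104), on 35 IgG UMIs, and passed in 6 of 9 alternatives. Without IgG replicate 2, all 23 of these calls in CD8 T and CD4 T cells were lost, counting a gene once per contrast, and no rise is read from them. In NK and monocyte/macrophage-like cells 0 genes of the 4 lists passed in any contrast.

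Over 18 library and class units with at least 20 cells, the genes most like Foxp3 in level were Gpr83 (Pearson r = 0.97), Gpld1 (0.97) and Lrrc32 (0.97), and the same 3 genes were the most like Il10 (0.98, 0.97 and 0.97). The units share libraries, depths and cell classes, and Gpr83 and Lrrc32 are markers used to name the Foxp3 T class, so these values are a description over 9248 genes. Il2ra was most like Gm2a (0.91), and Il15 most like Rac3 (0.97), Klrb1f (0.95) and S1pr5 (0.94). Among members, Foxp3 went with Il10 (0.96) and Ikzf2 (0.92).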

How the data were processed

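The authors deposited UMI counts per gene and barcode, not limited to cells and not normalized, for 7 libraries. The file headers name Cell Ranger 4 and the submitters' processing notes name Cell Ranger 7.0.1 and mm10; which of these made the counts was not settled. All samples are given V2 chemistry in the labels, while UT draws on another barcode list, so chemistry may also differ between UT and the rest. Cells were taken as the 51795 barcodes that reached 1000 UMIs and 500 genes and whose mitochondrial share was no more than 15%, the 3207 highest doublet scores were removed (0.8% per 1000 cells), and 48588 cells were clustered without the members (scanpy 1.11.5, 2000 variable genes, 30 components, resolution 1); 10.6% stayed unnamed. The T and NK cells were sub-clustered with each library centred. The naming rule, the centring, the split of T cells by Cd4, Cd8a and Cd8b1 UMIs, and the minimum of 5 cells for CD8 T and CD4 T cells (10 otherwise) were set after seeing the data.

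Sums of the counts over each class in each library went into the quasi-likelihood test of edgeR 4.0.16 under R 4.3.3 (TMM, filterByExpr, Benjamini-Hochberg over all genes of a class and contrast, adjusted p under 0.05). IgG, BP, BPI and CD40 shared 1 fit, and UT against IgG used all 7 libraries; for UT, BPI and CD40, with 1 library each, the spread was taken from IgG and BP. On simulated counts for BP against IgG in all T cells (9134 genes), 69% of 200 genes changed 4-fold were recovered. The 200 were drawn from genes at or above the median level, so recovery of lower genes was not measured. Foxp3 T cells in IgG, and microglia-like cells in BP replicate 1, were too few for a fit. Intervals are exact at 95%, and with the floor of 3 counts cover counting error only. The named genes were the members whatever their values, up to 4 genes per pathway list past the threshold (otherwise those with the smallest p), and the 3 genes most like each member by correlation of log2(CPM + 10). Members and lists were chosen with earlier results of these data known. Replicate numbers 1 and 2 of IgG and BP did not pair the samples (correlations of deviations from group means of -0.072 in all T, -0.078 in NK, -0.242 in monocyte/macrophage-like, -0.038 in CD8 T and -0.081 in CD4 T cells). Positions are from the GRCm38 annotation, and promoters from RefSeq, where 5 of 10 members were found. Another tumour model of the series was not analysed here.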

Additional observations from a re-analysis of the deposited data

How the results depend on the processing

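Counts of members called were the same, or within 1.5 times, in 113 of 178 alternatives and moved in 65. In NK and monocyte/macrophage-like cells, and in most contrasts of all T and CD4 T cells, 0 members were called as reported. A same count there means only that 0 were called again. Of 382 alternatives for single members with an unadjusted p under 0.05, none reversed and 284 kept their side of the threshold. Another 42 fell short and 56 newly passed. Only members past the threshold as reported could fall short, so the 42 are not to be set against all 382. By DESeq2 the count of called members was 0 for BP in all T (2 by edgeR), 0 in CD8 T for BP, BPI, CD40 and UT (1, 1, 1 and 3 by edgeR), 0 for BP in CD4 T, and 2 for BPI and 2 for UT in monocyte/macrophage-like cells (0 by edgeR), Il2rg and Il15ra in both. Of all genes, DESeq2 called 4 of 9134 for BP in all T, and 4, 9, 0 and 38 for BP, BPI, CD40 and UT in CD8 T cells. It called 0 of 1706 for BP in CD4 T cells, and 192 and 211 for BPI and UT in monocyte/macrophage-like cells. With library size only the count of members was 1 for CD40 in all T (8 of 9134 genes called). For UT it was 0 in CD8 T (42 of 8179) and 1 in CD4 T. With no filter on low counts the count of members was 1 for CD40 in all T (9 of 19834 genes called) and 1 for BP in NK (25 of 17071). In monocyte/macrophage-like cells it was 2, 3 and 4 for BP, BPI and UT. There 420 of 21383, 597 of 21383 and 644 of 21697 genes were called, beside 0, 0 and 12 as reported. For UT the count of members was 1 in CD8 T (47 of 17675) and 1 in CD4 T cells. With doublets kept it was 0 for BP in all T (1 of 11297 genes called), and 2 and 2 for BP and BPI in CD8 T (36 and 35 of 9176). In CD4 T cells it was 2, 1 and 2 for BP, CD40 and UT, with 84, 17 and 233 genes called. With a per-cell gate it was 0 for BPI, CD40 and UT in CD8 T (43, 6 and 62 genes called). In CD4 T cells it was 0 for BP (58 genes called) and 1 for UT. With the replicate number as a block it was 1 for BP in all T and 0 for BP in CD4 T cells, where Il2ra then did not pass the filter on low counts, and no other member count moved; with the numbers crossed, an alternative chosen after seeing the data, it was 3 for BP in monocyte/macrophage-like and 0 in CD8 T and CD4 T cells, with 111, 0, 520, 1 and 0 genes called in all T, NK, monocyte/macrophage-like, CD8 T and CD4 T cells.

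Leaving out 1 replicate gave 0 to 3 members for BP, 0 to 1 for BPI, 0 to 1 for CD40 and 0 to 2 for UT in all T cells. It gave 0 to 1 for BP in NK, 0 to 2, 0 to 4 and 0 to 4 for BP, BPI and UT in monocyte/macrophage-like, 0 to 1 for BP, BPI and CD40 and 0 to 3 for UT in CD8 T, and 0 to 1 for BP and UT in CD4 T cells. The Foxp3 T share difference ran from -0.398 to 12.7 percentage points when 1 library was left out, reversed without BP replicate 1 (-0.398), lay at 4.58 to 8.49 in the other alternatives of the share of T cells, and was 9.18 as a share of CD4 T and Foxp3 T cells. The count of all genes called for BP in all T cells was 68 (56 higher, 12 lower), 4 by DESeq2, 124 with library size only (108 higher, 16 lower), 1 with doublets kept, 8 without IgG replicate 2 (4 higher, 4 lower), 72 without IgG replicate 1 (45 higher, 27 lower) and 261 without BP replicate 2 (130 higher, 131 lower). Over the alternatives, all genes called ran from 4 to 116 for BPI (38), 0 to 13 for CD40 (0) and 52 to 375 for UT (176) in all T cells, where the number in brackets is that reported. They ran from 0 to 99 for BP (0), 0 to 14 for BPI (0), 0 to 33 for CD40 (1) and 9 to 101 for UT (2) in NK cells, and from 0 to 707 (0), 0 to 765 (0), 0 to 43 (0) and 2 to 1172 (12) for BP, BPI, CD40 and UT in monocyte/macrophage-like cells. They ran from 1 to 40 (38), 2 to 43 (32), 0 to 8 (4) and 15 to 85 (72) in CD8 T cells and from 0 to 84 (63), 0 to 0 (0), 0 to 17 (7) and 0 to 233 (77) in CD4 T cells, in the same order. Library size only moved the median of all genes from 0.06 to 0.27 for BP in all T cells. Of 40 median levels, 31 moved by less than 1 SD when cells were thinned to 1000 UMIs; the 9 others were Il2, Foxp3, Il10 and Il15 in CD8 T (0), Il2 (38.5) in CD4 T, Il2 (0), Il2rg (225) and Il15ra (25.6) in Foxp3 T, and Il15 (22.4 CPM) in NK cells. The cause of these changes was not tested.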
